A study of Mus musculus with 6 samples.

Results

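The 10 CC chemokine genes Ccl2, Ccl3, Ccl4, Ccl5, Ccl6, Ccl7, Ccl8, Ccl9, Ccl12 and Ccl24 were followed in myeloid cells sorted from mouse gliomas. They were taken by symbol from the table of counts, which holds 23107 genes, and all 10 were found and tested. RNA-seq libraries came from CD11b+ Gr-1+ cells, 3 from tumours with mutant IDH1 (mIDH1) and 3 from tumours with wild-type IDH1 (wtIDH1), and the mice of both groups were C57BL/6. IDH1, isocitrate dehydrogenase of the cytosol, produces 2-hydroxyglutarate when it carries the mutation found in gliomas. The series concerns G-CSF made by mutant IDH1 glioma cells and immunosuppression by myeloid cells, and the comparison addresses how such cells differ between the tumour genotypes. The sort combined CD11b, found on most myeloid cells, with Gr-1, an epitope of Ly6 antigens on neutrophils and many monocytes, so that a library is a mixture of cell types. The sources used here do not give the other alleles of the tumours, the age and sex of the mice or whether a library pools several mice. Nothing says that the 3 libraries of a group came from separate animals, so the spread behind the p-values is that between libraries and may be technical.

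CC chemokines are small secreted proteins named for a pair of adjacent cysteines. They bind G protein-coupled receptors on leukocytes and guide their migration, and the tissue's own macrophages and monocytes are a major source of them. In gliomas the ligands of CCR2 are best known for drawing blood monocytes into the tumour, while ligands of CCR1 act on monocytes, macrophages and T cells.

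The libraries held between 19728205 and 35093265 counts. A gene with a count of 0 could still have up to 3 counts, or 0.0861 to 0.151 counts-per-million (CPM) depending on the library. Levels are CPM scaled by TMM, edgeR's correction for composition. A difference passed where edgeR's quasi-likelihood test gave a Benjamini-Hochberg adjusted p under 0.05 over all 12950 genes tested, and log2 fold changes are mIDH1 over wtIDH1. Itgam, the gene of CD11b, averaged 2070 ± 211 CPM in mIDH1 and 1892 ± 146 CPM in wtIDH1 libraries (SD, n = 3 each). Of the genes tested, 360 were higher and 698 lower in mIDH1, or 486 higher and 593 lower with library totals alone, and 456 higher and 603 lower with upper-quartile factors. With DESeq2 713 were higher and 982 lower. With TMM the calls were 1058 of 12950 genes, and 334 to 1033 when 1 library was left out (558 without mIDH1 replicate 2, and 665, 334 and 364 with wtIDH1 replicate 1, 2 and 3 left out).

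Of the 10 CC chemokines, 1 passed the test, Ccl2, which fell in mIDH1, against 8.17% of all genes called in either direction, 5.39% lower and 2.78% higher. None rose by edgeR or limma voom, 3 were higher at an unadjusted p under 0.05 (Ccl6, Ccl9 and Ccl24), and DESeq2 called these 3 higher. One of them passed without mIDH1 replicate 1 (Ccl6) and another without mIDH1 replicate 3 (Ccl24), so that the count of higher members was 1 in each case. The log2 fold changes of the 10 genes ran from -0.97 to 1.81, 4 above and 6 below 0, with a median of -0.25, beside a median of 0.06 over all genes tested. The mIDH1 libraries all lay above the wtIDH1 libraries for Ccl6, Ccl8 and Ccl9 and all below them for Ccl2, Ccl4 and Ccl7. Over all genes tested, 14.0% had every mIDH1 library above and 14.9% every mIDH1 library below, 28.9% in all. In such bulk libraries fewer cells of a type and less RNA per cell cannot be told apart.

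**Figure D1:**
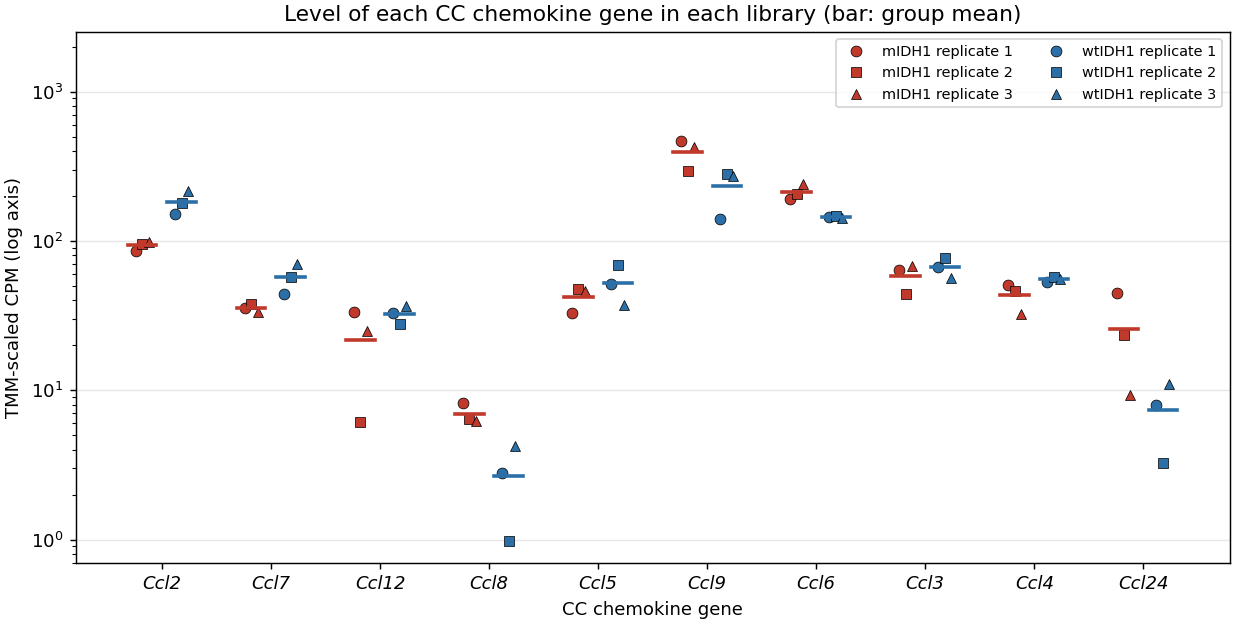
TMM-scaled CPM (log axis) of each CC chemokine gene in each of the 6 libraries, mIDH1 in red left of wtIDH1 in blue, with a bar at each group's mean, genes ordered along chromosome 11 with Ccl24 of chromosome 5 last. Ccl2 lies between 86.2 and 99.0 CPM in mIDH1 and between 152 and 217 CPM in wtIDH1 libraries, whereas Ccl6 and Ccl9 lie higher in mIDH1 and Ccl24 is spread widely in both groups.

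Of these genes, 9 lie on chromosome 11 in 2 clusters of neighbours, given in the mm10 build (GRCm38, GENCODE annotation). The first runs from base 82035571 at Ccl2 through Ccl7 and Ccl12 to base 82116799 at Ccl8, all on the forward strand. The second runs from base 83525778 at Ccl5 through Ccl9, Ccl6 and Ccl3 to base 83664683 at Ccl4, of which Ccl4 alone is on the forward strand. Ccl24 lies apart on the reverse strand of chromosome 5, from 135569937 to 135573049. Exons of these 10 genes overlapped no exon of another annotated gene, so reads of antisense partners could not be mixed in through the unstranded library kit as far as this annotation goes. Stretches of 31 bases were shared with transcripts of other genes for 4 of the 10 (Ccl5, Ccl6, Ccl9 and Ccl24), at most 3.98% of the stretches of a gene (Ccl9), and no stretch was shared between any pair of the 10.

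RefSeq's promoter table (GRCm38.p6) held 5 of the 10 genes, and 4 of these are shown because they are neighbours whose values went different ways or together: Ccl9 and Ccl6, both higher in every mIDH1 library, and Ccl12 and Ccl8, whose log2 fold changes had opposite signs. Each is the 250 bases before the annotated start, read 5′ to 3′ on the gene's strand. Their positions are chr11:83578637-83578886 on the reverse strand for Ccl9, chr11:83593088-83593337 on the reverse strand for Ccl6, chr11:82101595-82101844 on the forward strand for Ccl12 and chr11:82114935-82115184 on the forward strand for Ccl8. Capitals mark matches, on either strand, to a TATA box (TATAAA), an AP-1 motif (TGANTCA), a kappaB motif (GGG and TTTCC with any 2 bases between them), a C/EBP motif (TTGCNNAA) and an interferon-response motif (GAAA repeated after any 2 bases).
Ccl9: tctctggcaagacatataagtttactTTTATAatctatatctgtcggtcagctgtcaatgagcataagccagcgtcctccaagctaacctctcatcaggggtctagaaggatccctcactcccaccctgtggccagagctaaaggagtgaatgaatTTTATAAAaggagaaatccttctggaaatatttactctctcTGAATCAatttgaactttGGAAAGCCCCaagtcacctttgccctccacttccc
Ccl6: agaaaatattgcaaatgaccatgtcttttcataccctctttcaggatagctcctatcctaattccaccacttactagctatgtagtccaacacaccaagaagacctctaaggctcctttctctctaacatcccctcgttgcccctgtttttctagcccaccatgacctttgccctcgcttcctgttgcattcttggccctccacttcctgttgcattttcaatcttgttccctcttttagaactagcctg
Ccl12: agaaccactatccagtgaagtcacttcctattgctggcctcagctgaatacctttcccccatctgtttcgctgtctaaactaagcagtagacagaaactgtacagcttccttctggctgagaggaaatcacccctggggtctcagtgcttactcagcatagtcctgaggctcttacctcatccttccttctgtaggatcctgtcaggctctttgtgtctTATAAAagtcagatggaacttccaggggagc
Ccl8: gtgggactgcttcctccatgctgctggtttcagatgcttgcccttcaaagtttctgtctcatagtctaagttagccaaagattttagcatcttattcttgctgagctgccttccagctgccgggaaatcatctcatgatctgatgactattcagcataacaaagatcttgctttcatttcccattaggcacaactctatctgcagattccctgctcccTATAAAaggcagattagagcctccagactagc

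The Ccl12 and Ccl8 promoters each held 1 TATA box close to the start, at -31 to -26 and at -32 to -27. In the Ccl9 promoter the TATA letters stood at -224 to -219 and, overlapping on both strands, at -94 to -87. That promoter also held 1 AP-1 match at -53 to -47 and 1 kappaB match on the opposite strand at -35 to -26. None of the 5 motifs was found in the window of Ccl6. Of 32851 promoters of the same length, 12.4% held the TATA box, 6.75% the AP-1, 1.41% the kappaB, 9.56% the C/EBP and 2.98% the interferon-response letters. These matches describe letters in a window and do not show binding.

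Among the ligands of CCR2, the receptor of inflammatory monocytes, Ccl2 fell and its neighbour Ccl7 lay lower without passing. Ccl2 encodes the main monocyte attractant of the family (chromosome 11, 82035571 to 82037453). It was at 86.2, 95.3 and 99.0 CPM in mIDH1 libraries, against 152, 180.3 and 217 CPM in wtIDH1 libraries, so the groups did not overlap and the mIDH1 values were the more even. The means were 93.5 ± 6.56 CPM in mIDH1 and 183 ± 32.7 CPM in wtIDH1 (SD, n = 3 each; log2 fold change -0.97 ± 0.18 SE, 95% interval -1.36 to -0.58, edgeR adjusted p = 0.00695), or 0.511 times the wtIDH1 level. Ccl2 passed in all 14 alternative settings, with log2 fold changes of -1.09 to -0.83 and adjusted p up to 0.0489, reached without wtIDH1 replicate 3.

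Ccl7, which also binds CCR2, was at 35.6, 37.6 and 33.4 CPM in mIDH1, against 44.2, 57.4 and 69.6 CPM in wtIDH1 libraries. Every mIDH1 library was below every wtIDH1 library, but the difference did not pass (log2 fold change -0.68 ± 0.23 SE, 95% interval -1.17 to -0.19, adjusted p = 0.0888, edgeR), nor did it in any of 14 other settings. Of all pairs of members, Ccl2 and Ccl7 had the most similar profile over the 6 libraries, with a root mean square difference of 0.18 in centred log2 CPM. Within each library Ccl2 had 2.42, 2.53 and 2.96 counts per count of Ccl7 in mIDH1 and 3.44, 3.14 and 3.12 in wtIDH1.

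Ccl12, a rodent ligand of CCR2, was at 33.7, 6.17 and 24.9 CPM in mIDH1, against 32.7, 27.9 and 36.5 CPM in wtIDH1 libraries. The low mean of mIDH1, 21.6 ± 14.0 CPM beside 32.4 ± 4.34 CPM in wtIDH1 (SD, n = 3 each), rested on mIDH1 replicate 2. The log2 fold change was -0.58 (95% interval -1.57 to 0.40, edgeR adjusted p = 0.509), and without that library it was -0.14. Ccl8, which in mice attracts T cells through CCR8, was at 8.23, 6.39 and 6.27 CPM in mIDH1, against 2.77, 0.986 and 4.23 CPM in wtIDH1 libraries. The groups did not overlap, the wtIDH1 libraries were spread widely, and the test did not pass (log2 fold change 1.39 ± 0.68 SE, 95% interval -0.09 to 2.87, adjusted p = 0.258, edgeR).

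Ccl6 and Ccl9, rodent ligands of CCR1 made by macrophages and other myeloid cells, were higher in every mIDH1 library without passing. Ccl6 was at 192, 207 and 241 CPM in mIDH1, against 145, 147 and 143 CPM in wtIDH1 libraries. The wtIDH1 libraries were nearly equal, and all mIDH1 libraries lay above them (213 ± 24.8 and 145 ± 1.72 CPM, SD, n = 3 each). The log2 fold change of 0.56 ± 0.16 SE (95% interval 0.21 to 0.91) missed the threshold (edgeR adjusted p = 0.0525). It passed in 5 of 14 other settings, among them DESeq2 (adjusted p = 0.0225), library totals alone (adjusted p = 0.0334) and without mIDH1 replicate 1 (adjusted p = 0.0457).

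Ccl9 was at 466, 292 and 424 CPM in mIDH1, against 141, 283 and 272 CPM in wtIDH1 libraries. The lowest mIDH1 library and the highest wtIDH1 library nearly met, and wtIDH1 replicate 1 was far below the rest. The log2 fold change was 0.77 ± 0.26 SE (95% interval 0.21 to 1.32, edgeR adjusted p = 0.0903), and 0.50 without wtIDH1 replicate 1. Ccl9 passed in 3 of 14 other settings, with DESeq2 (adjusted p = 0.0336), no filter (adjusted p = 0.0316) and library totals alone (adjusted p = 0.0491).

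The inflammatory chemokines Ccl3, Ccl4 and Ccl5, which attract monocytes and T cells, did not pass. Ccl3 was at 63.6, 44.0 and 68.3 CPM in mIDH1, against 67.3, 77.0 and 56.8 CPM in wtIDH1 libraries, and the groups overlapped (log2 fold change -0.19, 95% interval -0.67 to 0.28, edgeR adjusted p = 0.674). Ccl4, its neighbour, was at 51.0, 46.5 and 32.4 CPM in mIDH1, against 53.3, 57.2 and 55.6 CPM in wtIDH1 libraries. All mIDH1 values of Ccl4 were lower, replicate 3 by most, yet the difference did not pass (log2 fold change -0.36, 95% interval -0.84 to 0.13, adjusted p = 0.392, edgeR). Ccl5, made by T and NK cells as well as myeloid cells, was at 33.0, 47.6 and 46.3 CPM in mIDH1, against 51.6, 68.9 and 37.1 CPM in wtIDH1 libraries, again with overlap (log2 fold change -0.31, 95% interval -0.88 to 0.25, edgeR adjusted p = 0.539). None of the 3 passed in any of 14 other settings, and the intervals still allow a level in mIDH1 as low as a log2 fold change of -0.88 (Ccl5).

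Ccl24, a ligand of the eosinophil receptor CCR3 that alternatively activated macrophages also make, had the most positive log2 fold change of the 10 and did not pass. It was at 44.7, 23.4 and 9.36 CPM in mIDH1, against 7.94, 3.26 and 10.98 CPM in wtIDH1 libraries. Replicates 1 and 2 of mIDH1 stood above all wtIDH1 libraries, while mIDH1 replicate 3 lay within their range. The log2 fold change was 1.81 ± 0.55 SE (95% interval 0.61 to 3.01, adjusted p = 0.0645, edgeR). Without mIDH1 replicate 3 it was 2.21 and passed (adjusted p = 0.00908), and without mIDH1 replicate 1 it was 1.14 (adjusted p = 0.267). It also passed with DESeq2 (adjusted p = 0.0117) and with no filter (adjusted p = 0.0162).

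**Figure D2:**
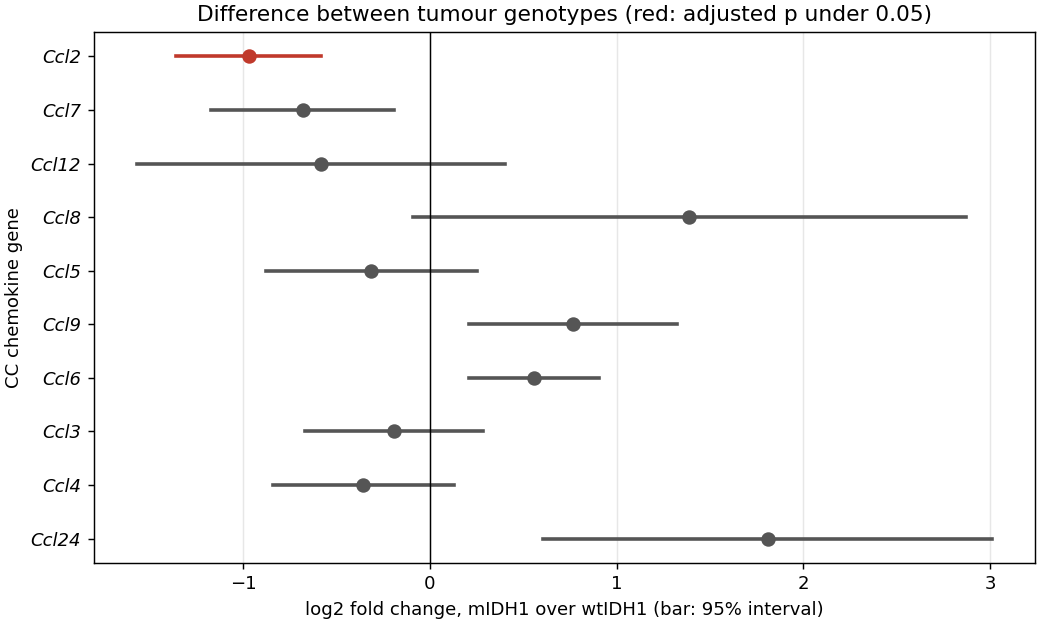
Log2 fold change (mIDH1 over wtIDH1, horizontal axis) of each CC chemokine gene, with its 95% interval from edgeR's quasi-likelihood fit on 3 against 3 libraries, red where the adjusted p was under 0.05. Ccl2 at -0.97 is the one gene in red, and the intervals of Ccl7, Ccl6, Ccl9 and Ccl24 exclude 0 although their adjusted p lies between 0.0525 and 0.0903.

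The summed level of the CC chemokines overlapped between the groups, while the shares of Ccl2 and of Ccl6 with Ccl9 did not. The 10 genes together reached 1014, 807 and 985 CPM in mIDH1, against 698, 902 and 903 CPM in wtIDH1 libraries. As a share of the summed counts of the 10 genes, Ccl2 made up 8.50, 11.8 and 10.1% in mIDH1, against 21.8, 19.98 and 24.0% in wtIDH1 libraries. Ccl6 and Ccl9 together made up 64.8 ± 2.78% in mIDH1 and 44.8 ± 3.45% in wtIDH1, and Ccl3 and Ccl4 together 10.9 ± 0.597% and 14.9 ± 2.42% in mIDH1 and wtIDH1 (SD, n = 3 each). The share of Ccl6 alone overlapped, at 19.0, 25.7 and 24.4% in mIDH1 and 20.8, 16.3 and 15.9% in wtIDH1 libraries. By position, the cluster from Ccl2 to Ccl8 held 16.9 ± 0.978% in mIDH1 and 33.0 ± 3.37% in wtIDH1, and the cluster from Ccl5 to Ccl4 held 80.3 ± 1.84% in mIDH1 and 66.1 ± 3.81% in wtIDH1 (SD, n = 3 each). Within each cluster the mean shares went both ways. In the second cluster Ccl3 (6.22 and 8.16%), Ccl4 (4.69 and 6.72%) and Ccl5 (4.62 and 6.38%, mIDH1 and wtIDH1) were lower in mIDH1. In the first cluster Ccl8 was higher in mIDH1 (0.747 and 0.325%). Counting error was small beside these differences, since the 95% Wilson interval of a gene's share reached at most 0.674 percentage points to either side. Intervals and floors cover counting error only, and the read counts carry no molecular identifiers. The shares are of counts not corrected for length, and so are compared between groups and not between genes. The transcript models of Ccl9 (3006 bases) and Ccl6 (1440 bases) are longer than that of Ccl2 (813 bases).

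Ratios within a library do not depend on how libraries are scaled, and 2 such ratios, chosen like that to Ccl7 after the values were seen, are given as a description. Ccl2 had 0.185, 0.326 and 0.234 counts per count of Ccl9 in mIDH1, against 1.08, 0.638 and 0.799 in wtIDH1 libraries. Against Ccl6 the ratio was 0.449, 0.460 and 0.411 in mIDH1, and 1.05, 1.23 and 1.51 in wtIDH1 libraries. Both ratios were lower in every mIDH1 library than in any wtIDH1 library. That had to follow, since every mIDH1 library was lower for Ccl2 and higher for Ccl6 and Ccl9, so the ratios add no separate evidence.

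**Figure D3:**
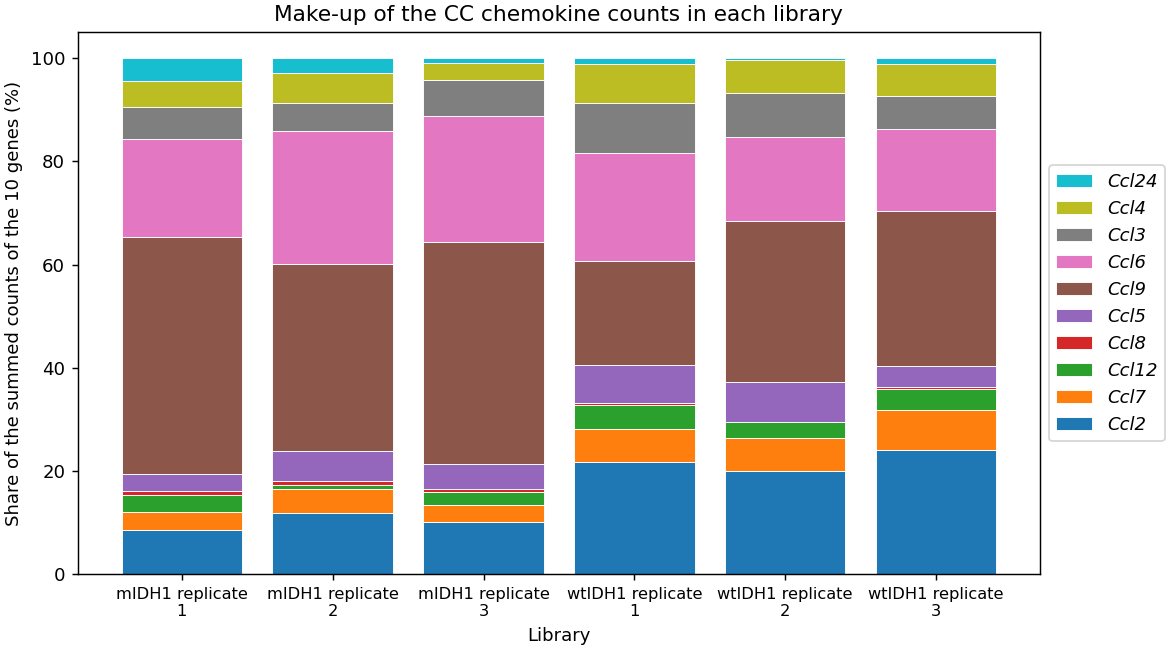
Share (%) of the summed counts of the 10 CC chemokine genes taken by each gene, one stacked bar per library, mIDH1 libraries left of wtIDH1. Ccl2, at the base of each bar, takes 8.50 to 11.8% in mIDH1 and 19.98 to 24.0% in wtIDH1, and Ccl6 and Ccl9 fill 61.9 to 67.5% in mIDH1 and 41.0 to 47.6% in wtIDH1. Counts are not corrected for transcript length.

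Shares and ratios of counts are not corrected for transcript length, so the order of the genes by level was taken per length. The unit was CPM per kilobase of the longest coding GENCODE basic transcript. In mIDH1 the order was led by Ccl6 at 148 ± 17.2, Ccl9 at 131 ± 30.1 and Ccl2 at 115 ± 8.07 CPM per kilobase (SD, n = 3), and the ranges of neighbours in this order overlapped. Below them, and separate from Ccl2, came Ccl5, Ccl3 and Ccl4 at 79.5, 76.6 and 65.6 CPM per kilobase with overlapping ranges. Ccl7 (44.4) was separate from Ccl4, and Ccl7, Ccl12 (40.2), Ccl24 (19.9) and Ccl8 (13.6 CPM per kilobase) each overlapped the next. Ccl12 reached 62.7 CPM per kilobase in mIDH1 replicate 1, within the range of Ccl4 (49.0 to 77.2), so the groups of genes are not cleanly apart. In wtIDH1 libraries Ccl2 stood alone at the top at 225 ± 40.2 CPM per kilobase, and the 7 genes from Ccl6 (100.7) down through Ccl5, Ccl3, Ccl4, Ccl9 and Ccl7 to Ccl12 (60.3) each overlapped the next. Ccl24 (5.71) and Ccl8 (5.21 CPM per kilobase) were separate from these and overlapped each other. The sources used here do not give the transcript models that the authors counted on, and the place of Ccl9 rests on a model of 3006 bases.

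By the root mean square difference of centred log2 CPM over the 6 libraries, the pair closest after Ccl2 and Ccl7 was Ccl4 and Ccl7 (0.28), and Ccl6 and Ccl9 were 0.42 apart. Ccl24 was nearer to Ccl8 (0.56) than to any other member, and Ccl12 and Ccl24 were farthest apart of all pairs (1.66 in centred log2 CPM). Among the genes tested, with unnamed gene models left out, the 3 with the profile most like Ccl2 were Hivep2 (0.08), Usp19 (0.09) and Ksr1 (0.11 root mean square difference in centred log2 CPM). Their log2 fold changes were -0.97, -0.94 and -0.83. A distance of this kind is a description over 6 libraries, and it includes the difference between the groups.

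Of 14 other CC chemokine genes of the mouse, 7 had 0 counts in all 6 libraries (Ccl11, Ccl20, Ccl21a, Ccl21b, Ccl21c, Ccl26 and Ccl27b), 2 had too few counts to be tested, and none of the 5 tested passed by edgeR, while 1 was lower at an unadjusted p under 0.05. That gene was Ccl22, a ligand of CCR4 that dendritic cells and macrophages make. It was at 4.93, 10.8 and 1.995 CPM in mIDH1, against 17.5, 30.3 and 14.4 CPM in wtIDH1 libraries, with no overlap (log2 fold change -1.81 ± 0.55 SE, edgeR adjusted p = 0.0633). By DESeq2, by limma voom, with no filter, with a replicate block and without mIDH1 replicate 2, 1 gene of these 14 was called lower. Ccl1, a ligand of CCR8, was at 8.52, 9.74 and 4.42 CPM in mIDH1, against 1.71, 0.379 and 6.55 CPM in wtIDH1 libraries, and the groups overlapped (adjusted p = 0.378, edgeR). Ccl25 reached no more than 3.28 CPM in any library.

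Among the 15 receptor genes of the family, 10 were tested and 1 passed, Ccrl2, which fell in mIDH1. Over all genes tested, 8.17% were called in either direction, so this count is near that share. Ccrl2 encodes an atypical receptor that binds chemerin and does not signal through G proteins (chromosome 9, 111054486 to 111057519). It was at 143, 143 and 121 CPM in mIDH1, against 268, 338 and 263 CPM in wtIDH1 libraries, without overlap (log2 fold change -1.09 ± 0.17 SE, edgeR adjusted p = 0.00282). It passed in all 14 other settings, with adjusted p up to 0.0255.

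The signalling receptors Ccr1 and Ccr2 did not pass. Ccr1, the receptor of Ccl3, Ccl5, Ccl6 and Ccl9 among others, was at 511, 569 and 352 CPM in mIDH1, against 459.8, 463 and 528 CPM in wtIDH1 libraries (log2 fold change -0.02, 95% interval -0.43 to 0.40, edgeR adjusted p = 0.971). The groups overlapped, and mIDH1 replicate 3 was the lowest of all libraries.

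Ccr2, the receptor of Ccl2, Ccl7 and Ccl12, was at 247, 301 and 61.0 CPM in mIDH1, against 389, 375 and 438 CPM in wtIDH1 libraries. All mIDH1 values were lower and replicate 3 lay far below the other two, with a log2 fold change of -0.98 ± 0.40 SE (edgeR adjusted p = 0.165). Without mIDH1 replicate 3 the log2 fold change was -0.55 (adjusted p = 0.0706), and with no filter Ccr2 passed (adjusted p = 0.0453). The receptors of Ccl8 and Ccl24 had few counts. Ccr8 lay between 3.90 and 9.33 CPM in mIDH1 and between 7.21 and 8.78 CPM in wtIDH1, and Ccr3 between 0.279 and 3.82 CPM in mIDH1 and between 0.403 and 1.71 CPM in wtIDH1. Ackr2, a scavenger of CC chemokines, had 12, 0 and 8 counts in mIDH1 and 1, 0 and 0 counts in wtIDH1 libraries and was not tested.

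**Figure D4:**
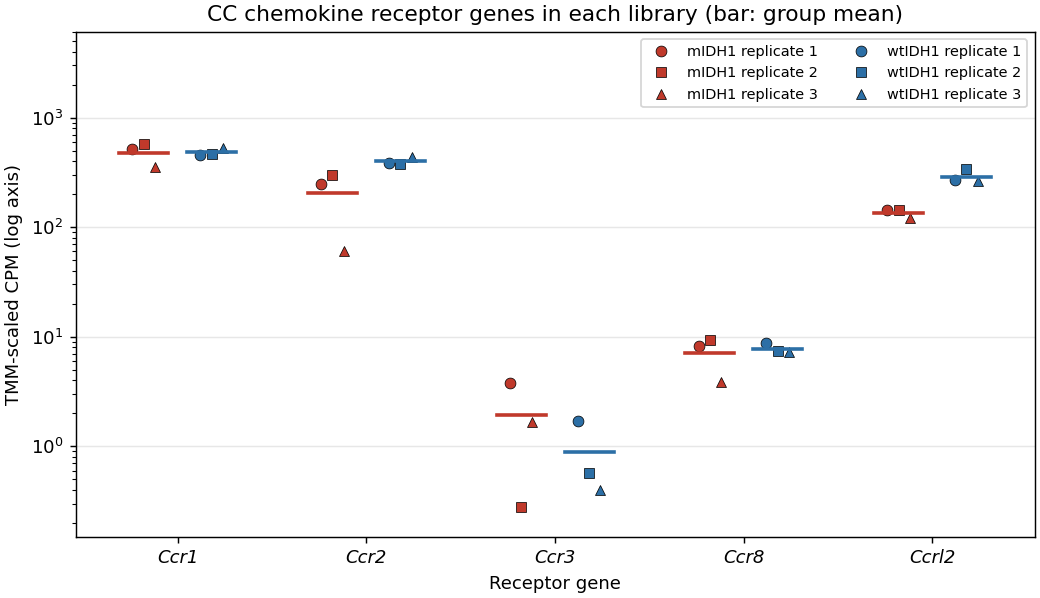
TMM-scaled CPM (log axis) of 5 CC chemokine receptor genes in each library, mIDH1 in red left of wtIDH1 in blue, with a bar at each group's mean. Ccrl2 lies at 121 to 143 CPM in mIDH1 and at 263 to 338 CPM in wtIDH1, and for Ccr2 mIDH1 replicate 3 stands apart at 61.0 CPM.

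Among genes that carry chemokine receptor signals, those that passed were lower in mIDH1. Of 25 genes from G protein subunits to RGS proteins, all tested, 5 fell by edgeR and none rose by edgeR, limma voom or DESeq2, while 3 were higher at an unadjusted p under 0.05. Over all genes tested, 5.39% were lower and 2.78% higher by edgeR. The list was mixed, with 11 log2 fold changes above 0 and 14 below, and a median of -0.22, beside 0.06 over all genes tested. Every mIDH1 library lay above every wtIDH1 library for 6 of the 25 and below for 10, beside 14.0% and 14.9% of all genes tested. The 4 with the smallest p were the phospholipase gene Plcb3 (-1.57), the kinase gene Prkcd (-1.24), Pik3r6 of phosphoinositide 3-kinase gamma (-1.17) and Rgs1, a brake on G protein signalling (-1.27). Plcb3 was at 45.3, 34.2 and 41.0 CPM in mIDH1, against 95.1, 137 and 127 CPM in wtIDH1 libraries (edgeR adjusted p = 0.000823). The number that fell was 2 without wtIDH1 replicate 2, and 3 when mIDH1 replicate 2 or either of the other wtIDH1 libraries was left out. The number that rose was 1 without mIDH1 replicate 1, without mIDH1 replicate 3 or with library totals alone.

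A list of genes tied to the induction of CC chemokines in myeloid cells held NF-kB subunits and activators and also brakes on NF-kB such as Nfkbia and Tnfaip3, and those that passed were lower in mIDH1. Of 26 tested, 10 fell by edgeR, beside 5.39% of all genes tested. Limma voom called 12 lower, beside 756 of the 12950 genes that passed the same filter. DESeq2 also called 12 lower, beside 982 genes lower in all, on the counts without that filter. None rose by any of these tools or at an unadjusted p under 0.05 in edgeR, and the median log2 fold change was -0.63. They were led by Nfkbiz (-1.05), an inducible NF-kB cofactor, Irf7 (-1.65), an interferon regulator, the kinase gene Ikbkb (-0.99) and the NF-kB subunit gene Rel (-1.16). Ikbkb, for example, was at 108, 113 and 97.6 CPM in mIDH1, against 206, 213 and 215 CPM in wtIDH1 libraries (adjusted p = 0.00297, edgeR). The number that fell was 4 without wtIDH1 replicate 2 or wtIDH1 replicate 3, and 1 gene rose without mIDH1 replicate 3. Whether these genes bear on the level of Ccl2 was not tested.

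The markers of the cells that the sort can hold are given beside these values. By edgeR, 2.78% of all genes tested were higher and 5.39% lower. Of 10 macrophage markers 5 rose (Mrc1, C1qb, Ms4a7, Mertk and Cd68) and none fell, and the summed level was 7883 to 15826 CPM in mIDH1 and 6045 to 6965 CPM in wtIDH1. The number that rose was 8 with no filter or without mIDH1 replicate 1. It was 3 with mIDH1 replicate 3 left out, 2 with wtIDH1 replicate 1 or 3 left out and 1 with wtIDH1 replicate 2 left out. Of 9 monocyte markers, which include Ccr2, 3 fell (Ly6c2, Plac8 and Klf4) and 1 rose (F13a1), or 3 rose without mIDH1 replicate 3, and their sum was 5707 to 8345 CPM in mIDH1 and 6527 to 10611 CPM in wtIDH1. Of 9 neutrophil markers tested 3 rose (Cxcr2, Mmp8 and Lcn2) and 1 fell (Csf3r), with none lower when any 1 wtIDH1 library was left out, and the sum of all 10 was 418 to 433 CPM in mIDH1 and 325 to 399 CPM in wtIDH1. The macrophage marker sum was highest in mIDH1 replicate 3, the library with the lowest Ccr2 and, within mIDH1, the lowest Ccl24. Their part in the chemokine values was not tested.

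Cells that the sort should hold few of were checked in the same way, beside the same 2.78% higher and 5.39% lower over all genes tested. None of 14 T and NK cell markers passed by edgeR, while 4 were higher at an unadjusted p under 0.05, limma voom called 1 higher and DESeq2 none, and their summed level was 372 to 789 CPM in mIDH1 and 262 to 611 CPM in wtIDH1. With 1 library left out, the number that rose was 2 in the absence of wtIDH1 replicate 1 or of mIDH1 replicate 3, and 1 gene fell in that of mIDH1 replicate 1. Of the eosinophil markers, Epx and Ear1 had 0 counts in all 6 libraries, Prg2 stayed at or under 0.101 CPM, and Siglecf was at 6.14 to 10.2 CPM in mIDH1 and 11.4 to 17.0 CPM in wtIDH1. Of 7 mast cell and basophil markers 6 had 0 counts throughout. The summed level of the 8 eosinophil genes was 15.6 to 45.9 CPM in mIDH1 and 28.9 to 30.6 CPM in wtIDH1, and that of mast cells and basophils at most 0.031 CPM in any library. Of the eosinophil genes 4 were tested and none passed by edgeR, at an unadjusted p under 0.05 or by DESeq2, but 1 rose without mIDH1 replicate 3. Of 10 microglia markers 1 rose (P2ry13), and the number was 0 with wtIDH1 replicate 2 or 3 left out and 2 without mIDH1 replicate 1, while leaving out mIDH1 replicate 3 gave 2 that fell. The summed level of these 10 was 940 to 1883 CPM in mIDH1 and 1098 to 1749 CPM in wtIDH1, above the neutrophil sum in every library. Among 5 tested markers of glioma and neural cells, 1 rose (Sox2), but with 1 library left out only without mIDH1 replicate 1. None of 9 dendritic cell, 4 B cell and 3 endothelial and pericyte markers tested passed by edgeR or DESeq2, and 0, 1 and 1 of them were at an unadjusted p under 0.05. All 9 dendritic cell markers nonetheless had log2 fold changes below 0 (median -0.60). The summed level of these 9 was 55.2 to 122 CPM in mIDH1 and 104 to 127 CPM in wtIDH1.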

How the data were processed

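For each gene and library, the authors deposited an estimated count that was not scaled to depth. The build mm10 and, as tools, HTSeq, TopHat2 2.0.13, Bowtie2 2.2.1, Cuffdiff 2.1.1, Cufflinks and FastQC are named in the submitters' processing notes. The sources used here do not give their order, settings or gene models. Per the labels' protocols, cells enriched on Percoll were sorted, and poly(A) RNA was prepared with a TruSeq kit that does not mark strand. These estimated counts were rounded, since 1.31 to 1.61% of them per library departed from a whole number by over 1e-09.

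The 12950 genes that passed filterByExpr (minimum count 10, minimum total 15) were tested with edgeR 4.0.16 in R 4.3.3 (TMM, glmQLFit with 4 residual degrees of freedom and no covariate), two-sided, with Benjamini-Hochberg adjustment over all of them. Levels are counts divided by the library total times its TMM factor, as CPM. A chi-square of 48.5 to 139 per degree of freedom between replicates of a group was far over sampling noise, and each counts as 1 sample. The 14 alternatives were library totals alone, upper-quartile factors, DESeq2's size factors within edgeR, no filter, a minimum count of 50, DESeq2 1.42.0, limma voom (limma 3.58.1), a replicate block and leaving out each of the 6 libraries. Tests were tried on simulated counts.

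All 10 members were named whatever their result. The other CC chemokines past the threshold or among the 3 highest, the receptors past it or bound by members, and up to 4 genes with the smallest p of the signalling and induction lists were named too. For distances, log2 CPM with a prior count of 2 was centred on the mean of the 6 libraries. The members and all lists were chosen with earlier results of these data known, so their counts are descriptions. The result of 1 receptor gene is not reported here.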

Additional observations from a re-analysis of the deposited data

How the results depend on the processing

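In place of 1058 genes called by edgeR, DESeq2 called 1695, and leaving out 1 library gave 334 to 1033. The deviations of libraries with the same replicate number correlated at -0.0322, 0.0313 and -0.0511, and not every library correlated best with its own number. No pairing by replicate number was thus seen, though so few pairs cannot exclude a weak one. The fit with the replicate block called 585 genes, 0 members higher and 1 lower. With the block 1 of the other CC chemokines was lower, against 0 without it, 2 macrophage markers were higher, against 5, and 0 neutrophil markers were lower, against 1, while 0 glioma and neural markers were higher, against 1. Ccl2 was the 1 member called lower in all 14 alternatives. The number of members called higher, 0 by the edgeR test, was 2 with library totals alone (Ccl6 and Ccl9), 1 with upper-quartile factors (Ccl6), 2 with no filter (Ccl9 and Ccl24), 1 with a minimum count of 50 (Ccl6) and 3 with DESeq2 (Ccl6, Ccl9 and Ccl24). It was 0 to 1 with 1 library left out, and the number of members called lower was then 1 to 1. The count of receptors called was 1, and 2 with no filter, where Ccr2 passed too. Ccl2 and Ccrl2 kept their sign in all 14 alternatives. With 3 libraries a group, a 95% interval as wide as that of Ccl8 (-0.09 to 2.87) leaves both no difference and a large one possible, and among the 10 members Ccl8 and Ccl24 had the widest intervals.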
